A study of Mus musculus with 4 samples.

Results

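The genes described here are 10 markers of the alveolar type 1 cell: Ager, Hopx, Pdpn, Aqp5, Emp2, Clic5, Sema3e, Rtkn2, Akap5 and Spock2. They were taken by symbol from a table of 21445 genes, and all 10 were found. RNA had been sequenced from mouse lung tumour preparations of 2 genotypes, with 2 libraries each. Mice of both groups carried Lkb1fl/fl, from which Cre recombinase removes Lkb1 (Stk11), a tumour suppressor kinase. KL25 mice were also Usp25-/-, which adds loss of the deubiquitinase Usp25, written as a null and not as a floxed allele. All mice had received Cre by intranasal adenovirus 10 weeks before collection, and the promoter driving Cre is not given in the sources used here. Tumour suspensions had been incubated with CD45 beads, and the cells sequenced are labelled CD45-. The comparison asks how these genes differed between KL25 and KL tumours.

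The alveolar type 1 cell is a very thin, flat epithelial cell that covers most of the gas exchange surface of the lung. It is renewed from cuboidal, surfactant-producing alveolar type 2 cells through a transitional, keratin-rich state. In the mouse its gene programme depends on the lung transcription factor NKX2-1 and on YAP and TAZ, the co-activators of TEAD factors that the Hippo kinases hold in check. None of the 10 genes is confined to this cell in all tissues. PDPN, for example, is also a classical marker of lymphatic endothelium.

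Usp25, which checks the labels, was at 2.65 and 1.71 FPKM in replicates 1 and 2 of KL25 and at 38.5 and 16.6 FPKM in replicates 1 and 2 of KL (FPKM, a fragment level scaled for transcript length and library size). Relative depth, as size factors, was 0.823 to 1.30. KL replicate 1 stood apart: its correlation with each other library was 0.874 to 0.885 across genes, against 0.933 to 0.967 among the others. The label CD45- was not matched by absence of leukocyte RNA, since Ptprc, which encodes CD45, was at 43.3 to 123 FPKM. Epithelial RNA was present in every library, with Epcam at 35.8 to 205 FPKM. Results that rest on KL replicate 1 are given with and without it below.

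The 10 genes differed widely in level. Aqp5, Ager, Pdpn and Emp2 led, with means over the 4 libraries of 96.8 ± 36.5, 80.8 ± 35.5, 56.4 ± 18.3 and 36.3 ± 11.4 FPKM (SD, n = 4). These 4 genes held 85.1% to 92.8% of the summed FPKM of the 10 genes in each library. Hopx followed at 20.5 ± 8.01 FPKM, then Clic5 at 6.47 ± 2.53 and Sema3e at 5.43 ± 1.99 FPKM. Akap5, Spock2 and Rtkn2 lay below 1 FPKM, at 0.846 ± 0.261, 0.530 ± 0.323 and 0.282 ± 0.141 FPKM. In rank among all genes, Aqp5 lay at percentile 96.5 of mean FPKM and Rtkn2 at percentile 31.6. Of the 9 neighbouring pairs in this order, 7 had library ranges that overlapped. The breaks lay between Hopx and Clic5 and between Sema3e and Akap5, so the order shows 3 tiers and not 10 distinct levels. Ager, a classical marker of the cell in mouse lung, thus stood among the abundant genes, while Rtkn2 and Spock2, also used to mark it, did not reach 1 FPKM in any library.

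**Figure D1:**
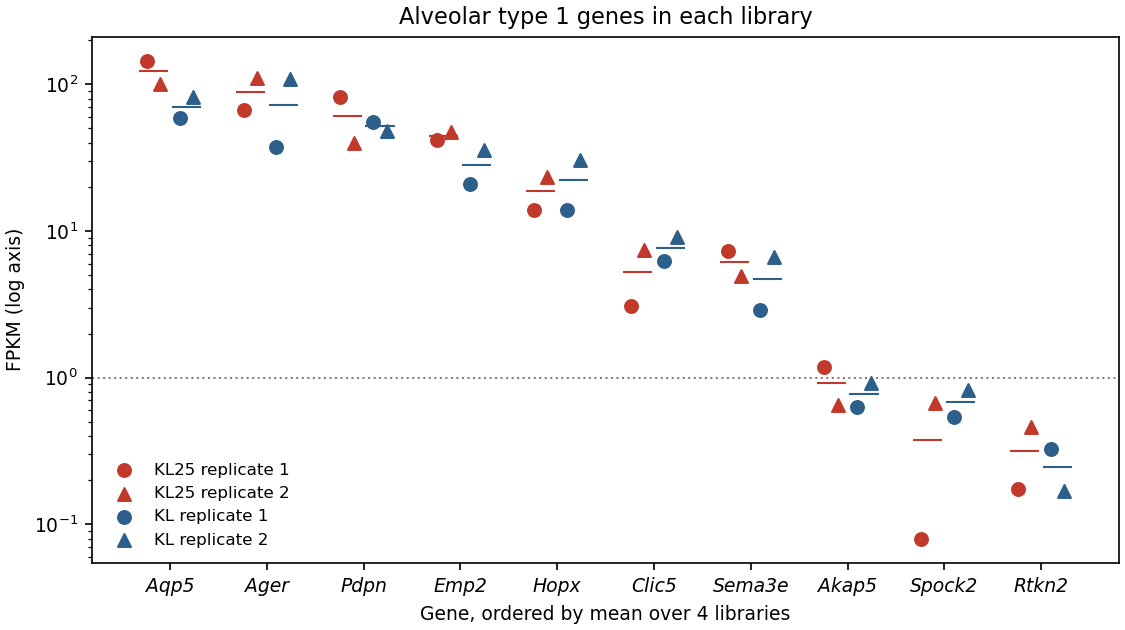
FPKM (log axis) of the 10 alveolar type 1 genes in each of the 4 libraries, with short lines at the group means (n = 2 each) and a dotted line at 1 FPKM. Aqp5 leads with a mean of 96.8 FPKM and 3 genes lie below 1 FPKM. For Aqp5 and Emp2 the KL25 points lie above all KL points, and for the other genes the groups overlap.

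All 10 genes are annotated as protein-coding in GENCODE M21 on GRCm38. Ager lies on chromosome 17 from 34597862 to 34600936 (plus strand), Aqp5 on chromosome 15 from 99590782 to 99594829 (plus strand) and Emp2 on chromosome 16 from 10281749 to 10313968 (minus strand). RefSeq promoter windows of 300 bases (250 before and 50 after the annotated start, GRCm38.p6) were given for 9 of the 10 genes, with 2 for Hopx. They were searched on both strands for GGAATG, the core letters bound by TEAD factors, and for CAAGTG, letters bound by NKX2-1, and no match of one overlapped a match of the other. GGAATG was in 0 of these 10 windows and in 14.7% of 32851 windows of all genes. CAAGTG was in 2 of 10, after the start in Spock2 and in the downstream of the 2 Hopx windows, and in 13.6% of all windows. Short motifs absent from these windows say nothing about binding elsewhere at the genes. The 250 bases before the start are shown for Ager, a classical marker of the cell, and for Emp2, one of the 2 genes whose libraries did not overlap between genotypes. Neither holds one of these motifs, so no base is in capitals.
Ager, chr17:34597600-34597849, plus strand: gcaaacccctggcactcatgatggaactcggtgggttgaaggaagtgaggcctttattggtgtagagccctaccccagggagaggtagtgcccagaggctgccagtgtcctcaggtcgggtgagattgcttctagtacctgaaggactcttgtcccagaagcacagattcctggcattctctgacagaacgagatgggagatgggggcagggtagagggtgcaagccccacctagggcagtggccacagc
Emp2, chr16:10313969-10314218, minus strand: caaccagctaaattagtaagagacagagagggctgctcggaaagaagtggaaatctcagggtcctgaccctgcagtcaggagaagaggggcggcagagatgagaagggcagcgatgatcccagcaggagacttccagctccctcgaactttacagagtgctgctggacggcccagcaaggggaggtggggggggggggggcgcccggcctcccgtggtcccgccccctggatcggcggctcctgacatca

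No member passed the test between genotypes. Of the 10 genes 7 reached the level filter, a group mean of 1 FPKM or more in KL25 or KL, and 0 of 7 passed limma at an adjusted p below 0.05, as did 0 of 12476 genes tested (0% called). Even Usp25, the gene removed in KL25, did not pass, at a log2 difference of -3.07 (limma adjusted p = 0.942). The authors' own test, in their deposited table, gives Usp25 an adjusted p of 0.017. Among the 7 members 0 had an unadjusted p below 0.05, against 269 higher and 134 lower genes in the whole table (2.16% and 1.07%). Their log2 fold change was positive in 5 of 7, against 53.1% of all genes tested, and its median was 0.37, against 0.03 for all genes tested. Without KL replicate 1 that median was -0.12, and without KL replicate 2 it was 0.86. The KL25 libraries exceeded the KL libraries without overlap in 2 of 7 members and in 19.1% of all genes tested. They lay below them without overlap in 0 of 7 members and in 15.0% of all genes tested. With 2 libraries against 2, an exact two-sided permutation test of a single gene cannot go below p = 0.333. All values are levels of whole preparations, in which fewer cells of a type and less RNA per cell cannot be told apart.

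Among membrane proteins of the type 1 cell, Aqp5 and Emp2 did not overlap between groups, while Ager and Pdpn did. KL25 exceeded KL without overlap in 2 of 7 members tested, beside 19.1% of all genes tested. Aqp5 encodes the apical water channel of the cell. It was at 145 and 101 FPKM in replicates 1 and 2 of KL25, and at 59.1 and 81.6 FPKM in replicates 1 and 2 of KL. Both KL25 values lay above both KL values, and the mean was 1.75-fold higher (123 ± 30.9 against 70.4 ± 15.9 FPKM, SD, n = 2 each). On the log2(FPKM + 1) scale the difference was 0.80 (SE 0.364, 95% interval -0.13 to 1.72) and did not pass in limma (adjusted p = 0.942). It stayed positive when any 1 library was left out, between 0.54 and 1.05, and was 0.57 without KL replicate 1.

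Emp2, a tetraspan protein of the epithelial membrane that is abundant in the lung, was the other gene without overlap. Its levels were 41.8 and 47.3 FPKM for KL25, against 20.8 and 35.6 FPKM for KL, in replicate order. The KL25 libraries lay close together, while the KL libraries differed more from each other than KL replicate 2 did from KL25 replicate 1. The log2 difference was 0.69 (SE 0.365, 95% interval -0.24 to 1.61, limma adjusted p = 0.942) and the mean 1.58-fold higher. Leaving out KL replicate 1 made it 0.31 and leaving out KL replicate 2 made it 1.06, so its size, though not its sign, depended on which KL library was kept.

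General epithelial genes were also at higher levels in both KL25 libraries. The summed level of 10 epithelial markers was 2622 and 1039.8 FPKM for KL25, against 649 and 597 FPKM for KL. Of these markers 0 of 10 passed limma, beside 0 of all 12476 genes tested. Their log2 fold change was positive in 10 of 10, beside 53.1% of all genes tested, and KL25 exceeded KL without overlap in 6 of 10, beside 19.1%. Per 100 FPKM of the epithelial adhesion gene Epcam, Aqp5 was at 70.9 and 145 FPKM for KL25, against 102 and 228 FPKM for KL. Emp2 was at 20.4 and 67.6 FPKM per 100 of Epcam in KL25 and at 36.0 and 99.4 FPKM in KL. On that scale the groups overlapped for both genes, and the higher value lay in KL. The part of epithelial RNA in the Aqp5 and Emp2 differences was not tested further, and Epcam was chosen as a scale after its values were seen.

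Ager encodes RAGE, a multiligand receptor on the basal membrane of the type 1 cell. It was at 66.4 and 111 FPKM in replicates 1 and 2 of KL25 and at 37.2 and 108 FPKM in replicates 1 and 2 of KL. The highest values of the 2 groups were nearly the same, and the lowest value lay in KL replicate 1. The log2 difference was 0.43 (SE 0.596, 95% interval -1.09 to 1.94, limma adjusted p = 0.944). Leaving out KL replicate 1 made it -0.33 and leaving out KL replicate 2 made it 1.18, so its direction turned on a single KL library.

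Pdpn encodes podoplanin, a mucin-like glycoprotein of the apical surface. It was at 82.2 and 40.1 FPKM in KL25 and at 55.3 and 48.2 FPKM in KL. The 2 KL25 libraries held the highest and the lowest value, with both KL libraries between them. Its log2 difference was 0.15 (SE 0.429, 95% interval -0.94 to 1.24, limma adjusted p = 0.967), and it was -0.36 without KL25 replicate 1. Pdpn was one of 4 members with their highest level in KL25 replicate 1. Among other cells that express Pdpn, the lymphatic list was low, with the defining factor Prox1 at 0.09 to 0.58 FPKM and a summed level of 6 genes of 12.2 and 20.7 FPKM for KL25, against 31.9 and 13.3 FPKM for KL. The 5 mesothelial genes summed to 141 and 83.9 FPKM for KL25, against 48.2 and 34.6 FPKM for KL. Most of it was Msln, at 138 and 74.1 FPKM for KL25, against 46.3 and 32.4 FPKM for KL. The other genes of the list were at 5.40 FPKM or less. They were highest in KL25 replicate 2, where Pdpn was lowest. The part of lymphatic or mesothelial cells in the Pdpn level was not tested.

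Hopx, a small homeodomain protein without DNA binding, marks type 1 cells and their progenitors and was at 14.0 and 23.5 FPKM in KL25 and at 13.9 and 30.4 FPKM in KL. Both replicate 1 libraries were low and both replicate 2 libraries were high. The log2 difference was -0.17 (SE 0.480, 95% interval -1.39 to 1.05, limma adjusted p = 0.967). It became 0.18 without KL25 replicate 1 and 0.36 without KL replicate 2. In the annotation 412 bases, or 27.2%, of the exonic sequence of Hopx lie opposite the antisense gene Hopxos. The strand setting used for counting is not given in the sources used here, so reads of these genes may not have been separated.

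Clic5, a chloride intracellular channel protein that joins membrane to actin cytoskeleton, had the most negative log2 difference among the members tested. It was at 3.09 and 7.43 FPKM in KL25 and at 6.29 and 9.07 FPKM in KL. KL25 replicate 1 held the low value, and KL25 replicate 2 lay between the KL libraries. The log2 difference was -0.55 (SE 0.443, 95% interval -1.67 to 0.58, limma adjusted p = 0.942), and leaving out KL25 replicate 1 or 2 made it -0.02 or -1.07.

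Hopx and Clic5 are also expressed outside the type 1 cell, and in these libraries Hopx was low and high where blood endothelial markers were. The median deviation of 10 endothelial genes from their own mean, on the log2(FPKM + 1) scale, was -0.60 and 0.30 in replicates 1 and 2 of KL25, and -0.55 and 0.76 in those of KL. For Hopx the deviations were -0.44 and 0.27 in KL25 and -0.45 and 0.62 in KL. Replicate 2 lay above replicate 1 in both genotypes in 30.2% of all genes whose mean reached 1 FPKM, so this order is not particular to endothelial genes. Per 100 FPKM of the endothelial gene Pecam1, a scale chosen after its values were seen, Hopx was at 48.6 to 53.7 FPKM in 3 libraries and at 62.2 FPKM in KL25 replicate 1. Clic5 was at 13.7 to 21.9 FPKM per 100 of Pecam1. The part of endothelial RNA in either level was not tested.

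**Figure D2:**
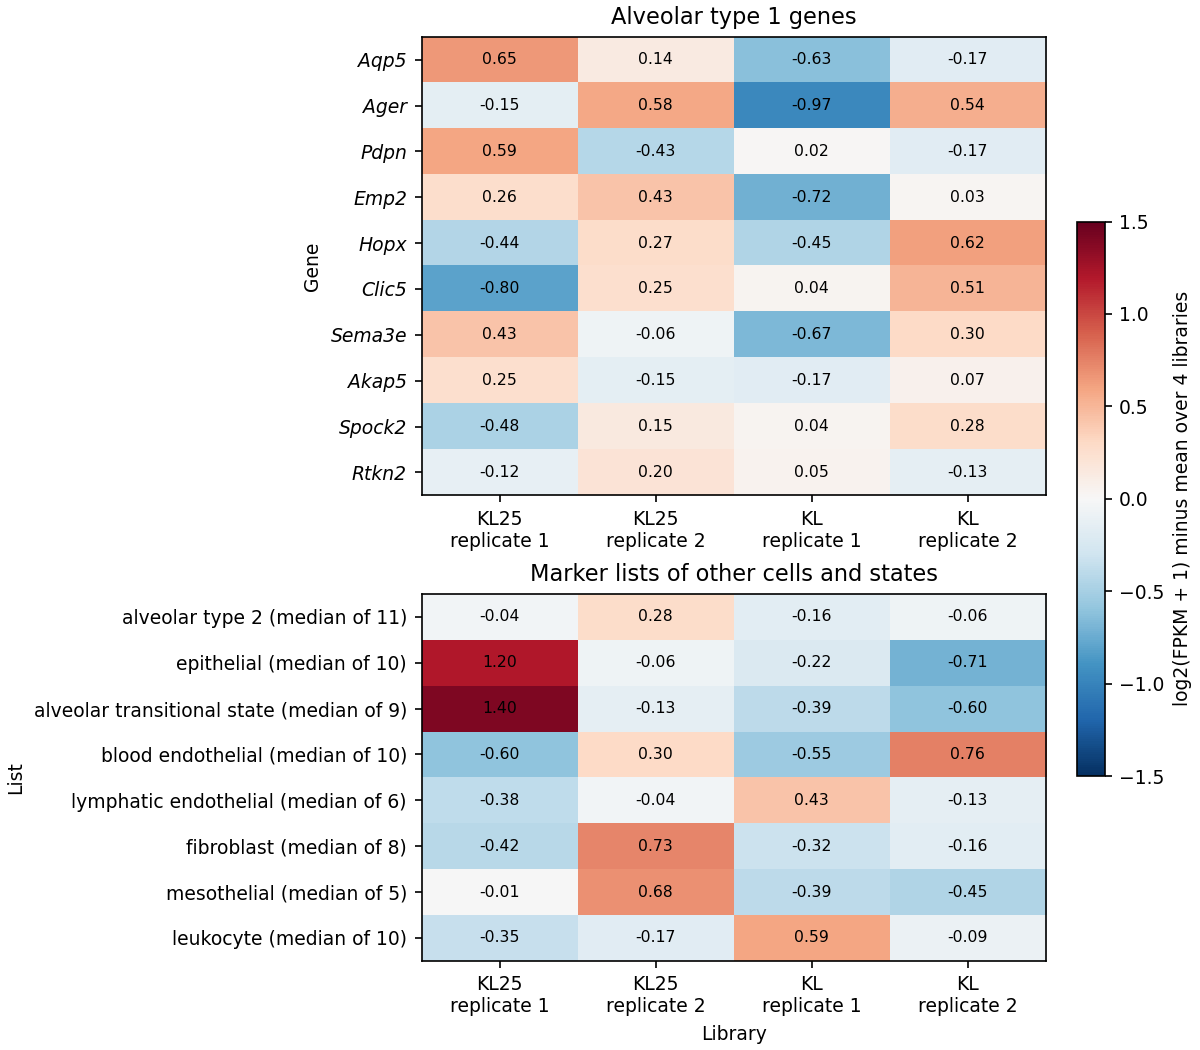
Difference of log2(FPKM + 1) from its mean over the 4 libraries, for each alveolar type 1 gene (upper panel) and as the median over genes of marker lists (lower panel). Aqp5, Ager, Emp2, Hopx, Sema3e and Akap5 are below their mean in KL replicate 1. Hopx, from -0.45 to 0.62, and the blood endothelial list, from -0.60 to 0.76, are low in both replicate 1 libraries and high in both replicate 2 libraries.

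The secreted products were Sema3e and Spock2. Sema3e, a class 3 semaphorin that signals through Plexin-D1, was at 7.33 and 4.91 FPKM in KL25 and at 2.88 and 6.61 FPKM in KL. The groups overlapped, with the lowest value in KL replicate 1. The log2 difference was 0.37 (SE 0.432, 95% interval -0.73 to 1.47, limma adjusted p = 0.942), and it was -0.12 without KL replicate 1. Spock2, a matrix proteoglycan also called testican, was below the level filter, at 0.0796 and 0.672 FPKM in KL25 and at 0.540 and 0.830 FPKM in KL. Its 10.4-fold range between libraries was the widest of the 10 genes. It came from a single low value in KL25 replicate 1, and its mean normalized count in the authors' deposited table was only 23.7.

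The intracellular signalling proteins Akap5 and Rtkn2 were also too low for the test. Akap5, an anchoring protein for protein kinase A, was at 1.18 and 0.652 FPKM in KL25 and at 0.627 and 0.924 FPKM in KL. Rtkn2, of the rhotekin family, was at 0.173 and 0.463 FPKM in KL25 and at 0.325 and 0.168 FPKM in KL. In both genes each group held one of the 2 higher libraries. Their mean normalized counts in the authors' deposited table were 64.4 and 13.1, and 216 exonic bases of Rtkn2 (3.89%) face an antisense gene.

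The authors' deposited table, made from their own counts, covers all 10 genes. It gives log2 fold changes from -0.93 (SE 1.37) for Spock2 to 0.78 (SE 0.509) for Aqp5, in KL25 against KL. In the authors' deposited table Emp2 is at 0.63 (SE 0.525), Sema3e at 0.35, Rtkn2 at 0.28, Ager at 0.27, Akap5 at 0.23 and Pdpn at 0.21, while Hopx is at -0.30 and Clic5 at -0.59. Aqp5 has the lowest unadjusted p of the 10 in the authors' deposited table, at 0.126, and the adjusted p is 0.99997 for each of them. Of all genes with an adjusted p in the authors' deposited table, 0.122% are below 0.05. The 7 genes tested here have the same sign in both sources.

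**Figure D3:**
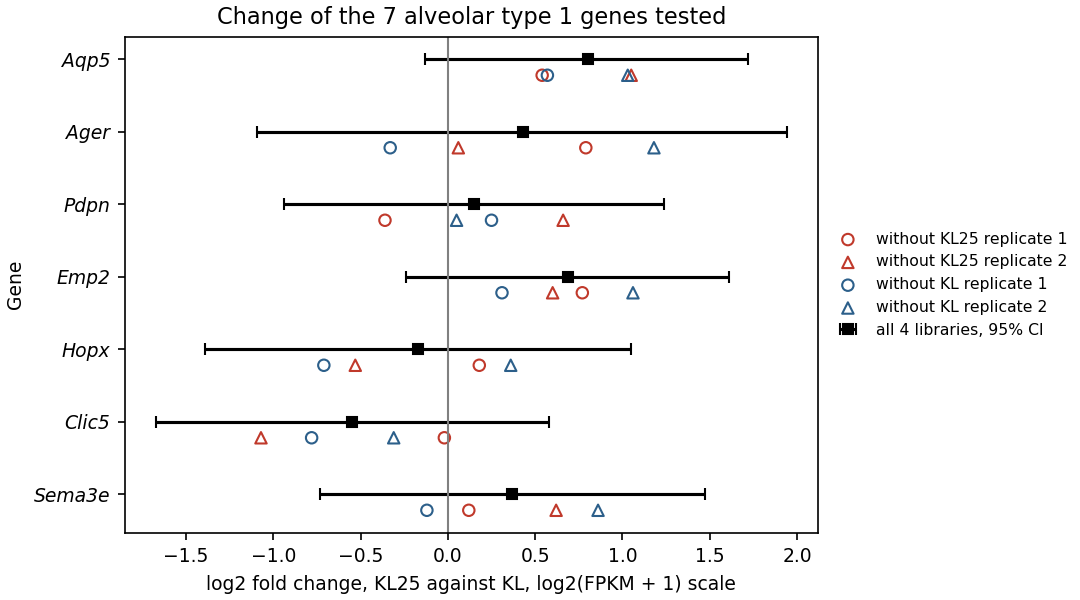
Difference in log2(FPKM + 1) between KL25 and KL for the 7 alveolar type 1 genes tested, with 95% intervals from limma (squares, n = 2 each), and the value when 1 library is left out (open symbols). Every interval includes 0. Aqp5, Emp2 and Clic5 keep their sign without any 1 library, and Ager ranges from -0.33 to 1.18.

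Each of these intervals is wide. For Ager it reaches from -1.09 to 1.94 and for Aqp5 from -0.13 to 1.72, so a difference of 1 on the log2 scale in KL25 lies inside both. The data therefore leave room for a change of that size in most members, and the missed threshold does not show equal expression.

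Libraries of one genotype differed widely in these genes. KL replicate 1 held the lowest value of 6 of the 10 genes, among them Akap5, whose mean lay below 1 FPKM. That library was lowest in 39.3% of the 11991 genes whose mean reached 1 FPKM. In 5 of the 10 replicate 2 lay above replicate 1 in both genotypes, against 30.2% of the genes whose mean reached 1 FPKM. They were Ager, Hopx, Emp2, Clic5 and Spock2, of which Spock2 lay below that level. The summed level of the 10 genes was 361 and 337 FPKM for KL25, against 197 and 322 FPKM for KL. The summed level of 11 alveolar type 2 genes was also lowest in KL replicate 1, at 5114 and 4820.1 FPKM for KL25, against 1625 and 3985 FPKM for KL. Most of that sum was Sftpc and Sftpb, at 339 and 865 FPKM in KL replicate 1. The median level of the list was not lowest there, at 43.3 FPKM against 41.6 FPKM in KL25 replicate 1, nor were Sftpa1, Etv5, Slc34a2, Napsa and Lpcat1 lowest there. Per 100 FPKM of the type 2 sum, the type 1 genes summed to 7.07 and 7.0 FPKM in KL25 and to 12.1 and 8.07 FPKM in KL. Per 100 FPKM of Sftpc, which encodes surfactant protein C, Ager was at 4.83 and 4.28 FPKM in KL25, and at 11.0 and 4.62 FPKM in KL. Ager and Sftpc thus kept nearly the same ratio in 3 libraries, and KL replicate 1 differed. The summed level of 10 leukocyte genes was highest in that library, at 1985 FPKM. KL replicate 2 followed with 1429 FPKM, then KL25 replicate 2 with 1160.2 FPKM and KL25 replicate 1 with 1083 FPKM. Not every gene of the list followed the sum. Laptm5, Cd3e, Nkg7 and Cd79a were highest in another library, and Cd3e was lowest in KL replicate 1, at 0.93 FPKM. Of that leukocyte list only Nkg7 was listed at 0, in KL25 replicate 1, and its part in the low type 1 levels was not tested.

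Other genes known from type 1 cells also gave no call. Of 14 such genes 12 were tested, and 0 passed in either direction, beside 0 of all 12476 genes tested. Their log2 fold change was positive in 8 of 12, beside 53.1% of all genes tested. Its median was 0.50, beside 0.03 for all genes tested, and lay between 0.44 and 0.55 when any 1 library was left out. The KL25 libraries exceeded the KL libraries without overlap in 6 of 12, beside 19.1% of all genes tested, and lay below them in 1 of 12, beside 15.0%. The lowest unadjusted p belonged to Ndnf, a secreted neurotrophic factor, at 10.8 and 9.93 FPKM in KL25 and at 3.96 and 6.17 FPKM in KL. Its log2 difference was 0.93 (SE 0.313, limma unadjusted p = 0.0298, adjusted p = 0.942). Lmo7, an actin-associated protein of cell junctions, was at 37.3 and 26.9 FPKM in KL25 and at 17.6 and 17.9 FPKM in KL. Krt7, a simple epithelial keratin, was at 652 and 252 FPKM in KL25 and at 183 and 150 FPKM in KL, and Gprc5a, an orphan receptor of lung epithelium, at 546 and 156 FPKM in KL25 and at 99.2 and 117 FPKM in KL. Krt7 and Gprc5a were highest in KL25 replicate 1, the library with the highest epithelial level. Cav1, the caveolin of type 1 cells and endothelium, was low there, at 12.8 FPKM, and at 40.9, 21.8 and 40.4 FPKM in KL25 replicate 2 and KL replicates 1 and 2.

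Regulators of the type 1 programme also gave no call. Of 14 Hippo, TEAD and lung transcription factor genes, all tested, 0 passed, beside 0 of all 12476 genes tested. Of the 14, 8 were positive, beside 53.1% of all genes tested. The median log2 fold change was 0.06, against 0.03 for all genes tested. That median became -0.09 or 0.17 when KL25 replicate 1 or 2 was left out, and 0 or 0.20 when KL replicate 1 or 2 was. Nkx2-1 was at 13.4 and 13.4 FPKM in KL25 and at 6.70 and 13.7 FPKM in KL, with the low value in KL replicate 1. In that library some other genes of the list were lowest and some were highest. The median log2 deviation of the list there was -0.06. The lowest unadjusted p values belonged to Tead4, Yap1, Lats2 and Cebpa. Tead4, a DNA-binding partner of YAP, was at 1.73 and 1.23 FPKM in KL25 and at 0.385 and 0.709 FPKM in KL. Yap1 was at 7.11 and 6.37 FPKM in KL25 and at 4.97 and 4.03 FPKM in KL, without overlap. Lats2, a Hippo kinase that restrains YAP, was at 7.14 and 5.33 FPKM in KL25 and at 11.7 and 7.42 FPKM in KL, also without overlap. KL25 exceeded KL without overlap in 3 of the 14 genes (Tead4, Yap1 and Stk3), near the 19.1% of all genes tested. It lay below KL without overlap in 2 of the 14 (Lats2 and Sav1), near the 15.0% of all genes tested. Cebpa, a transcription factor of type 2 cells and of myeloid cells, was at 53.4 and 4.31 FPKM in KL25 and at 31.6 and 63.6 FPKM in KL. Target genes of YAP and TAZ had a median log2 fold change of 0.11 over the 5 tested of 6 genes found, and 0 passed. It became 0.44 when KL25 replicate 1 was left out and 0.01 when KL25 replicate 2 was, and -0.02 and 0.36 when KL replicates 1 and 2 were. Ajuba, a LIM protein that binds Hippo kinases, was at 3.67 and 3.55 FPKM in KL25 and at 1.41 and 2.88 FPKM in KL. Cyr61, Amotl2 and Ctgf overlapped between groups, with log2 differences of 0.17, 0.11 and -0.17.

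Genes of the transitional state between type 2 and type 1 cells had a median log2 fold change of 0.99. For the general epithelial list it was 1.03. Of the 9 transitional genes 8 were positive, beside 53.1% of all genes tested. None of them passed limma (0 of 9), beside 0 of all 12476 genes tested. KL25 exceeded KL without overlap between libraries in 5 of 9, beside 19.1% of all genes tested. Sfn, an epithelial 14-3-3 protein, was at 356 and 109 FPKM in KL25 and at 52.3 and 83.2 FPKM in KL. Itgb6, an integrin subunit that activates TGF-beta, was at 3.81 and 2.88 FPKM in KL25 and at 2.02 and 1.21 FPKM in KL. Krt8, a simple epithelial keratin, was at 1067 and 382 FPKM in KL25 and at 252 and 247 FPKM in KL. Areg, the EGF receptor ligand amphiregulin, was at 878 and 282 FPKM in KL25 and at 177 and 205 FPKM in KL. These 4 genes had the lowest unadjusted p of the list. The median was 0.51 without KL25 replicate 1, 1.97 without KL25 replicate 2 and 1.28 without KL replicate 1. Epithelial markers, among which Krt8 is in both lists, were highest in KL25 replicate 1 as well, as given above, and their part in the transitional values was not tested. Whether the type 1 genes and the transitional genes differed from each other in their change was not tested.

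**Figure D4:**
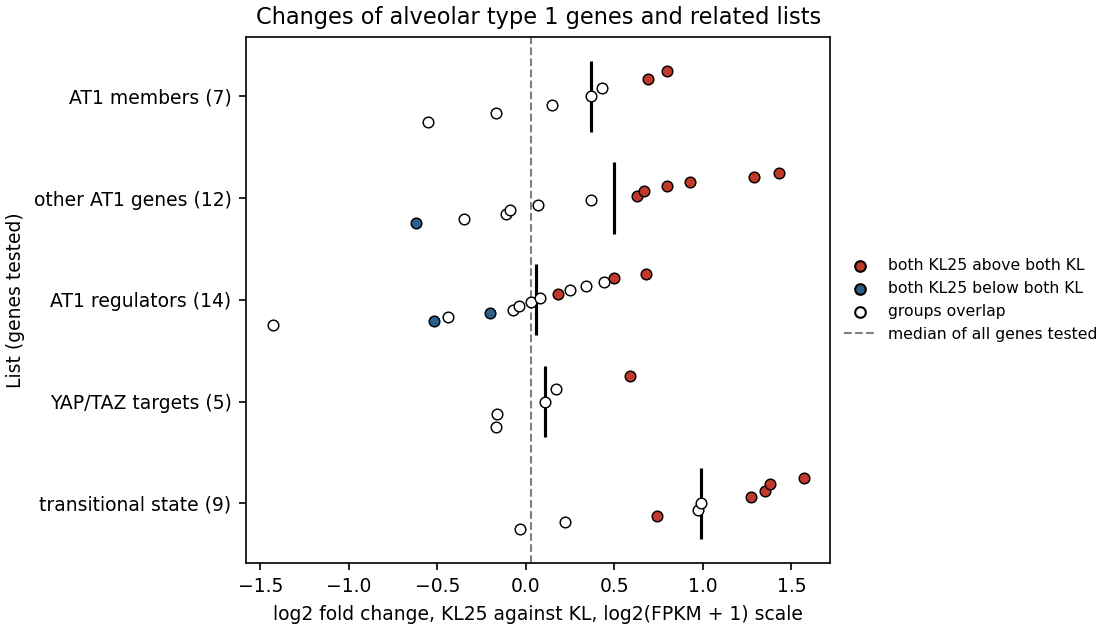
Log2 fold change on the log2(FPKM + 1) scale for each tested gene of 5 lists, with a line at each list's median and a dashed line at the median of all genes tested, 0.03. Filled points mark genes whose 2 KL25 libraries lie all above or all below the 2 KL libraries. The medians are 0.37 for the 10-gene list, 0.50 for other type 1 genes, 0.06 for regulators, 0.11 for YAP and TAZ targets and 0.99 for the transitional state.

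The genes nearest to Ager over the 4 log2(FPKM + 1) values, by Euclidean distance, which counts level as well as pattern, were Lamtor1, Ppt1 and Sf3b5, at distances of 0.420, 0.430 and 0.439. Lamtor1 was at 73.3 and 89.2 FPKM in KL25 and at 44.2 and 110.2 FPKM in KL. Like Ager, it was lowest in KL replicate 1. The 3 genes encode a lysosomal adaptor, a lysosomal thioesterase and a splicing factor subunit, and none is in the type 1 lists used here.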

How the data were processed

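Poly(A) RNA of 4 mouse lung tumour preparations, 2 KL25 and 2 KL, was sequenced with a stranded kit. Per the labels' protocols, cutadapt trimmed the reads, which were aligned to GRCm38 and turned into gene counts by HTSeq. The sources used here name neither the aligner nor the strand setting, and the submitters' processing notes also list GRCm39. The deposited values per library were taken to be FPKM. Their header names no unit, but across 11535 genes the mean normalized count per FPKM rose with exonic length (Spearman correlation 0.711). Per the file headers, the authors also deposited these quantities per gene: the mean normalized count (a signal), the log2 fold change and its SE, the test score, the p-value and the adjusted p-value. FPKM carry no counts, so no counting interval is given. Size factors were read from the deposited means of genes seen in 1 library, 100% of which were multiples of a step to within 0.01 of a step. Rows whose names had become dates (25, with 0.117% of summed FPKM) were left out.

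Genes entered the fit where KL25 or KL averaged 1 FPKM or more. Values were modelled as log2(FPKM + 1) in limma 3.58.1, under R 4.3.3, using its trended prior, and p-values were adjusted by Benjamini-Hochberg over all 12476 genes, with 0.05 as the threshold. On this scale the change of a low gene is understated. Lists were described, not tested. The fit was tested on simulated data, where it called 1% of 2-fold, 55.4% of 4-fold and 97.7% of 16-fold changes. It also called 0.0937% of unchanged genes. Each simulated table held planted changes of 2-fold to 64-fold, which ease the Benjamini-Hochberg threshold. These rates therefore need not hold in the data, where 0 of 12476 genes passed. The simulated noise was independent between genes and alike in all libraries, so it held no library set apart as KL replicate 1 is. The design text gives 2 mice per group. Each p-value sets the difference between groups against the spread between libraries within groups, moderated by the trended prior over all genes. All 10 members were named. Of related lists up to 4 genes with the lowest unadjusted p were named, while Nkx2-1, Cav1, the genes used as scales and single markers of other cells (Ptprc, Prox1, Msln) were chosen after their values were seen. The members and lists were chosen with earlier results of these data known. Alternatives covered the pseudocount, filter, scaling, replicate number and leaving out each library. A further allele that both genotypes carry is not reported here. A second copy of the table and a table holding only a title were not used here.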

Additional observations from a re-analysis of the deposited data

How the results depend on the processing

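The count of members passing limma was 0 in all 11 alternatives run, as were the counts for other type 1 genes and for all genes. At an unadjusted p below 0.05 the members counted 0, except for 1 higher (Emp2, limma adjusted p = 0.187) without KL replicate 2. Over all genes 269 higher and 134 lower became 1205 and 1445 without KL replicate 2, and 107 and 49 without KL25 replicate 1. The members' median log2 fold change was 0.21 and 0.43 with pseudocounts of 5 and 0.1, 0.34 with libraries centred on their medians and 0.39 after rescaling FPKM to TPM. Leaving out 1 library moved it from -0.12 (without KL replicate 1) to 0.86 (without KL replicate 2). The same fits turned the sign of Ager (-0.33 to 1.18), Hopx (-0.71 to 0.36), Pdpn (-0.36 to 0.66) and Sema3e (-0.12 to 0.86). Changing the pseudocount, filter, scaling or block turned no member's sign. With 1 library left out, the lone library of its group is assumed to vary like the other group. Same-numbered libraries share only a number in the labels. Their deviations correlated at 0.152 across genes, and with the replicate number as a block the median was 0.37 with 0 members passing. Akap5, Spock2 and Rtkn2 have means below 1 FPKM. Spock2 and Rtkn2 rest on few reads, with mean normalized counts of 23.7 and 13.1 in the authors' deposited table. Akap5 rests on more, at 64.4.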
